A study of Mus musculus with 12 samples.

Results

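Cluster 6 is 1 of the 14 cell clusters that the authors deposited for tumour-infiltrating immune cells of mice, and it is described here across T and NK labels and across treatment. Its members are all cells that the deposited annotation places in that cluster, whatever their cell type label, and they number 2126 of 45477 cells. They were chosen by cluster number and not by any single value. The clusters were made from these same cells, and whether RNA, tags or both were used is not stated in the sources used. Every comparison of cluster 6 with other clusters is therefore a description without a test. All 6 mice were B6.129S7-Rag1tm1Mom/J, a Rag1-deficient strain that lacks lymphocytes made by gene rearrangement, and bore an intradermal B16-F10 melanoma. Each received CD8+ T cells of Pmel Thy1.1 donors, whose transgenic receptor is directed at a melanocyte antigen, by the retro-orbital route. The dose was the same in both groups, at 1 M cells per mouse (M for mega). In the CAL-101 group (3 mice) the T cells had been cultured with CAL-101, an inhibitor of the PI3K delta isoform also known as idelalisib; in the Control group (3 mice) they had been cultured without it. Both groups share the host strain, the tumour line and the transferred cell type, and from every mouse live CD45.2+ cells of the digested tumour were sorted. RNA and 102 antibody tags, 7 of them isotype controls, were read from the same droplets of 1 library per mouse. Cluster 6 held 359, 460 and 423 cells in the CAL-101 mice and 237, 273 and 374 cells in the Control mice. A mouse's cluster 6 cells had 255552 to 459871 RNA UMIs in all, a UMI being a molecule counted once by its random tag, and 388899 to 1186755 antibody tags. Of the cluster's cells, 29 carried a droplet barcode that also occurs in another library.

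A droplet in which a cell has lost cytoplasm through a broken membrane keeps the RNA that is held inside organelles better than free cytoplasmic messenger RNA. The 13 protein-coding genes of the mitochondrial genome, which encode subunits of the respiratory chain and of ATP synthase, are transcribed and kept within mitochondria, and nuclear RNAs such as Malat1 are kept in the nucleus. Haemoglobin messenger RNA belongs to red cells and their precursors, CD117 (the product of Kit) is the stem cell factor receptor of progenitors and mast cells, and CD20 (the product of Ms4a1) is a surface protein of B cells.

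Each antibody is read through a DNA barcode of 15 bases. The barcodes of the 2 antibodies with unusual counts in this cluster, of CD300LG, which came next in order, and of CD45, the antibody against the protein on which the cells were sorted, are printed 5′ to 3′ with all bases in capitals because the whole barcode is what is read.
CD117: TGCATGTCATCGGTG
CD20: TCCACTCCCTGTATA
CD300LG: CGGTCCGTATCATTT
CD45: TGGCTATGGAGCAGA
The CD117 and CD20 barcodes differ from each other at 9 of the 15 positions, and each differs from its nearest neighbour in the panel at 7 positions.

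Cluster 6 cells had little RNA, and a large part of it was mitochondrial. The median cell had 865.5 RNA UMIs (interquartile range 623 to 1256) and 355 genes, against 8386 UMIs and 2802 genes in the median cell of all other clusters. The lowest median among the 13 other clusters was 946 UMIs, in cluster 12. Of the cluster 6 cells, 60.3% had under 1000 UMIs, against 0.687% of the other cells. The deposited cells start at 500 UMIs, so still emptier droplets are outside these values. Mitochondrially encoded RNA made up 34.9% of UMIs in the median cell (interquartile range 13.3% to 52.6%), against 3.36% in the median cell of the other clusters, where the highest cluster median was 16.3%. The marker mt-Co1, a subunit of cytochrome c oxidase, was at 54190 to 82046 CPM (counts among all RNA UMIs of the cells summed, scaled to a common total) in the 6 mice, against 7631 to 8598 CPM in the other cells of the same mice. The cluster lay far above the other cells in every mouse. The same held in all 6 mice for mt-Co3 (78673 CPM over the cluster, 8363 CPM over the other cells) and mt-Atp6 (72424 and 7857 CPM), and the ratio to the other cells lay between 7.21, for mt-Atp8, and 9.84, for mt-Nd6, over the 13 mitochondrial genes. The ribosomal RNA-associated transcripts Gm42418 and Gm26917 were at 26701 and 2868 CPM, against 2562 and 217 CPM in the other cells, and higher in 6 of 6 mice. As a share of all RNA UMIs Malat1 was lower, at 4757 CPM against 6577 CPM, and ribosomal protein messenger RNA made up 14.7% of UMIs against 19.9%. Mitochondrial RNA is part of that total, at 37.4% of summed UMIs in the cluster and 4.22% in the other clusters. This lowers the share of every other RNA in the cluster. Levels among non-mitochondrial UMIs alone were not compared, so these values do not show a loss of Malat1 or ribosomal protein RNA. Among the genes at 500 CPM or more elsewhere, Kcnq5 (138 against 846 CPM), Bach2 (128 against 561 CPM) and Gzma (423 against 1843 CPM) had the lowest ratios, each lower in 6 of 6 mice. For Gzma the other cells include NK-labelled cells of clusters 0, 7, 9 and 13, with a mean over mice of 7068 CPM. Among T-labelled cells alone the mean was 461 CPM in cluster 6 and 449 CPM in clusters 1 to 5, so Gzma was not lower than in cells of the same label.

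**Figure D1:**
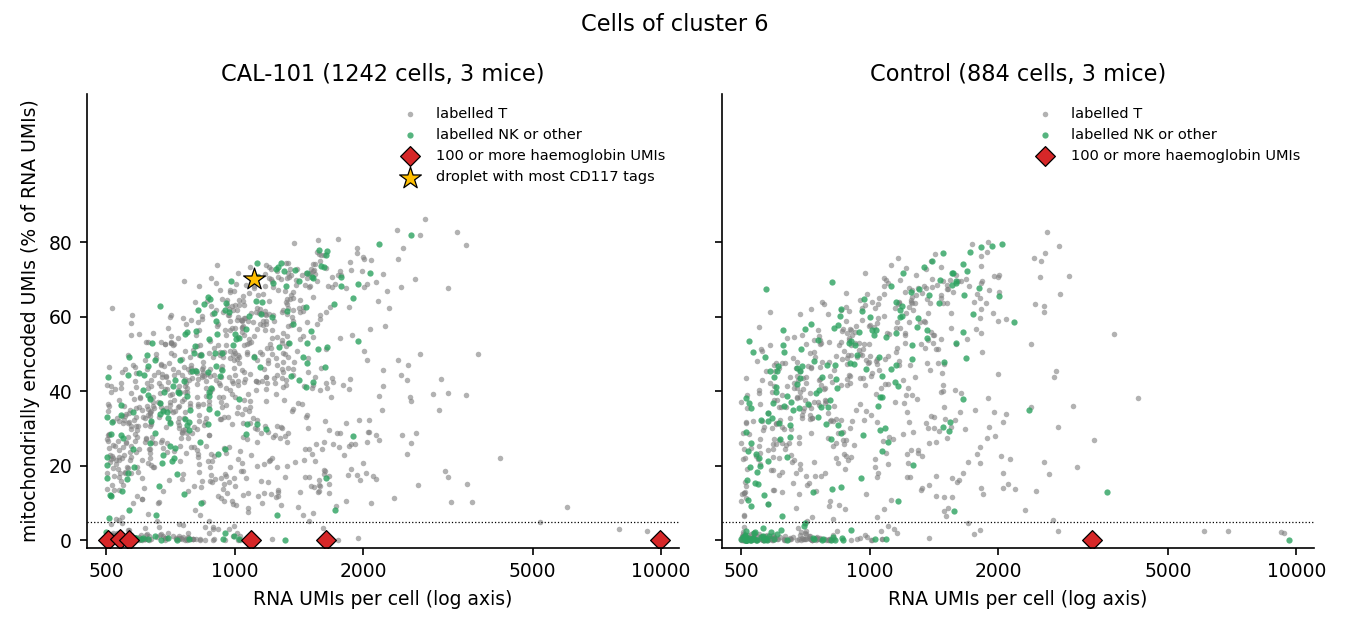
Each point is a cell of cluster 6, with its RNA UMIs on a log axis and the mitochondrially encoded share of these UMIs on the other axis, for the CAL-101 group on the left and the Control group on the right; grey cells are T-labelled, green cells carry the NK or another label, and the star is the droplet with most CD117 tags. The dotted line lies at 5%; a band of 429 cells lies below it, and all 7 droplets with 100 or more haemoglobin UMIs (diamonds) are in that band.

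The cluster was not uniform along the mitochondrial axis, as the plot of UMIs against mitochondrial share shows. A band of 429 cells, 20.2% of the cluster, had under 5% mitochondrial UMIs, while only 48 cells lay between 5% and 10%; the limit of 5% was chosen after these values were seen and marks a range, not a cell type. Cells under 5% had a median of 574 UMIs and 381 tags, against 970 UMIs and 1276 tags in cells at 5% or more. Their CD45 share of tags was also lower, with a median over cells of 0.935% against 8.26%, and so was CD8a, at 0.861% against 3.55%. In each of the 6 mice the CD45 median was lower in the band, between 0.559% and 1.22%, than in the remaining cells, where it lay between 6.84% and 10.3%. Ribosomal protein RNA made up 25.3% of UMIs in the band against 12.7% outside it. T cell receptor genes were not missing from the band: Trac was at 320 CPM against 148 CPM and Cd3e at 337 CPM against 170 CPM, each higher in 6 of 6 mice. All RNA shares and CPM in this paragraph count mitochondrial RNA in the total, at 1.09% of summed UMIs in the band and 44.3% outside it. That alone raises other RNAs in the band, and levels among non-mitochondrial UMIs were not compared. The share of the cluster in this band ran from 9.22% to 25% in CAL-101 mice and from 16.9% to 28.6% in Control mice. The tag of CD9, a tetraspanin, took 2.66% of tags in the band against 0.233% outside it, but that value rested on 1 mouse: CAL-101 mouse 2 had 8.38%, while the other 5 mice had 0.265% to 0.396%. The medians of cluster 12, with 118 cells, were 0.687% mitochondrial UMIs, 946 UMIs and 0.423% CD45. At the other end, the 346 cells at 60% or more mitochondrial UMIs had more UMIs (median 1343.5) and more tags (median 2395) than any lower range, and their Malat1 share was 0.112% of UMIs, against 0.678% in cells at 20% to 40%.

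The deposited labels divided the cluster into 1709 T-labelled cells (1290 with the plain label "T cells", 327 with the CD8+ and 92 with the CD4+ label), 406 NK-labelled cells and 11 cells of other labels. T cell receptor genes were detected under both labels, at levels closer to each other than those of T-labelled and NK-labelled cells in other clusters. Over the 6 mice, Trbc2, the constant region of the T cell receptor beta chain, had a lowest, median and highest value of 3583, 4395 and 5643 CPM in T-labelled cells of the cluster and 3171, 3875 and 5539 CPM in its NK-labelled cells. The ranges overlapped almost completely, whereas outside the cluster Trbc2 was at 8455 to 9520 CPM in T-labelled cells of clusters 1 to 5 and at 551 to 667 CPM in NK-labelled cells of clusters 0, 7, 9 and 13. Cd3e, a signalling chain of the receptor, gave 145, 207 and 234 CPM in T-labelled and 120, 196 and 248 CPM in NK-labelled cells of the cluster, against 12.4 to 22.6 CPM in NK-labelled cells of the other clusters. Within mice, T-labelled cells were higher for Trbc2 in 5, for Cd3e in 4 and for Cd8a RNA in 5 of 6 mice. Other receptor genes lay apart more: Trac, the alpha chain constant region, was at 126, 204 and 232 CPM in T-labelled and 24.3, 94.9 and 138 CPM in NK-labelled cells, higher under the T label in 6 of 6 mice. So were Cd3d (mean 518 CPM in T-labelled and 342 CPM in NK-labelled cells) and Cd3g (681 and 484 CPM), while NK-labelled cells of the other clusters had 18.3 to 27.8 CPM of Trac, 41.5 to 63.1 CPM of Cd3d and 71.1 to 118 CPM of Cd3g. The CD8a tag took 2.12% to 4.11% of tags in T-labelled and 1.69% to 3.78% in NK-labelled cells, against 6.2% to 8.35% in T-labelled cells of clusters 1 to 5 and 0.241% to 0.485% in NK-labelled cells elsewhere.

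Under both labels the NK markers Ncr1, Fcer1g and CD49b were below the levels of NK-labelled cells of other clusters, and several NK markers were higher under the NK label. Ncr1, which encodes the NK receptor NKp46, was at 0 to 16.2 CPM in T-labelled and 0 to 110 CPM in NK-labelled cells of the cluster, against 157 to 260 CPM in NK-labelled cells of clusters 0, 7, 9 and 13. The integrin tag CD49b took 0.0873% to 0.383% of tags in T-labelled and 0.0559% to 0.418% in NK-labelled cells, against 4.51% to 6.55% in NK-labelled cells elsewhere. Ncr1 was higher under the NK label in 5 of 6 mice. Fcer1g and Tyrobp, adaptor proteins of activating receptors, were higher under it in 6 of 6 mice: Fcer1g was at 17.7 to 58.3 CPM in T-labelled and 135 to 836 CPM in NK-labelled cells with no overlap, and Tyrobp at 20.2 to 199 CPM and 59.1 to 655 CPM. NK-labelled cells of other clusters had 1570 to 1732 CPM of Fcer1g. Gzmb (mean 734 CPM in T-labelled and 920 CPM in NK-labelled cells), the NK-1.1 tag (0.171% and 0.196%) and the CD90.2 tag (0.453% and 0.879%) were higher under the NK label in 6 of 6 mice too, with overlapping ranges, and CD49b in 5 of 6. The other NK markers were less set apart by label. Klrk1 went the other way, with means of 217 CPM in T-labelled and 193 CPM in NK-labelled cells. In the same order, Klra4 had 9.90 and 10.1 CPM, Klrb1c 13.3 and 16.3 CPM and Klra8 6.37 and 11.8 CPM. Klrc1 had means of 88.5 and 117 CPM, against 94.4 CPM in NK-labelled cells of the other clusters. The 406 cells are called NK-labelled below. The method behind the labels is not stated in the sources used, and the part that free RNA in the droplets has in these levels was not tested.

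**Figure D2:**
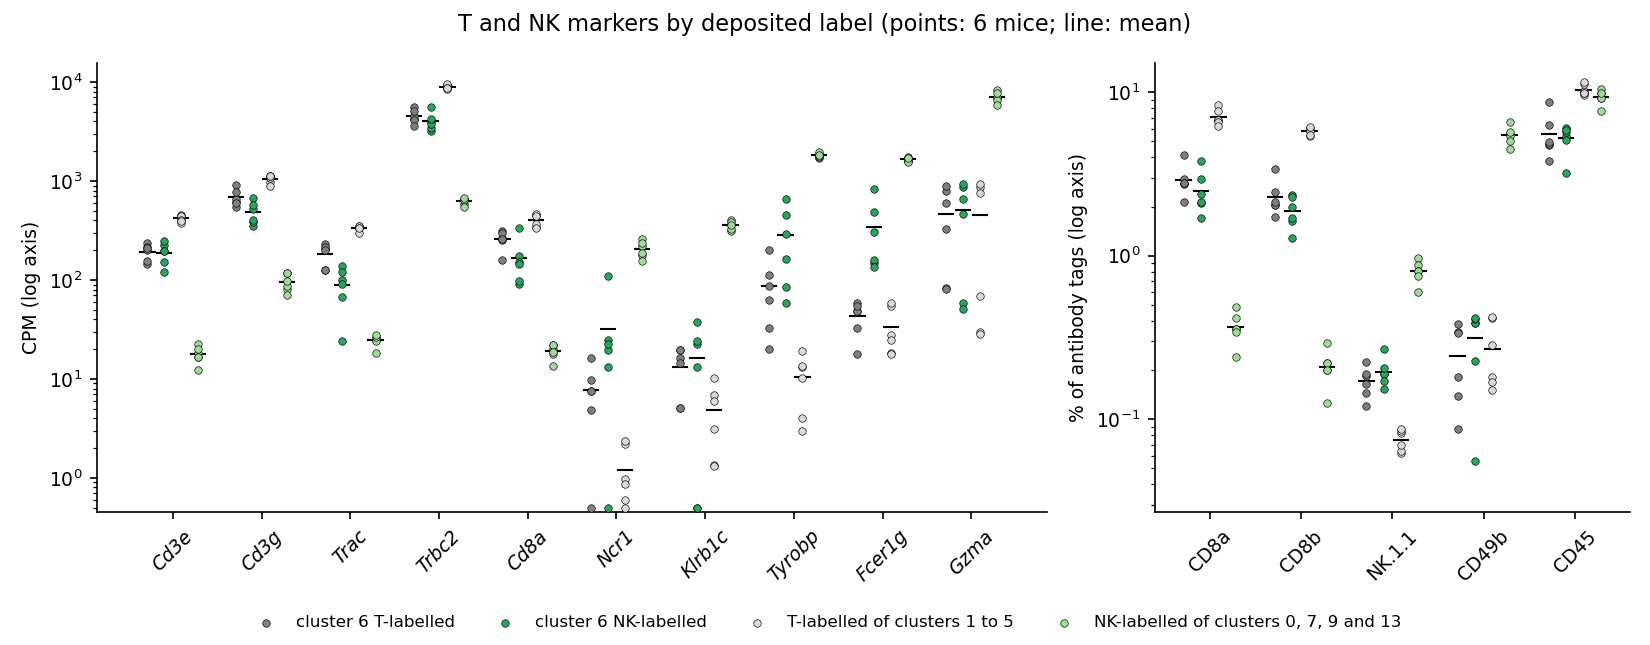
Levels of 10 genes (CPM, left) and shares of 5 antibody tags (percent of tags, right), on log axes, in the T-labelled and NK-labelled cells of cluster 6 and in T-labelled and NK-labelled cells of other clusters. Points are the 6 mice, lines are means and values under the axis are drawn at its lower edge; the 2 labels of cluster 6 overlap for Trbc2, Cd3e and CD8a and lie further apart for Trac and Fcer1g.

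T-labelled cells retained slightly more RNA than NK-labelled cells of the same mice. The lowest, median and highest per-mouse medians were 842.5, 866.5 and 977.5 UMIs in T-labelled cells and 694, 802 and 866.5 UMIs in NK-labelled cells. T-labelled cells were higher in 6 of 6 mice, by 92.3 ± 47.4 UMIs (mean ± SD of the paired difference, n = 6; exact paired permutation p = 0.03125, the smallest that 6 pairs allow; adjusted p = 0.156 over the 5 measures compared). With mean in place of median UMIs the difference of 98.4 held in 4 of 6 mice (exact p = 0.125). The mitochondrial share was 29.9% to 42.8% in T-labelled and 34.0% to 52.3% in NK-labelled cells, with a paired difference of -2.23 ± 6.83 percentage points (exact paired permutation p = 0.4375, n = 6, adjusted p = 0.729). Neither difference passed the adjusted threshold of 0.05. Among the T labels, the plain label had a median of 928.5 UMIs and 32.3% mitochondrial UMIs, the CD8+ label 773 UMIs and 38.8%, and the CD4+ label 770 UMIs and 36.5%.

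Haemoglobin RNA, given as a marker of this cluster, was not a property of the cluster as a whole. Of 2126 cells, 17 had a haemoglobin UMI (0.800%, exact 95% binomial interval 0.466% to 1.28%), against 163 cells (0.376%) in the other clusters. That interval pools the cells of all mice and does not cover the spread between mice. By mouse, 3, 0 and 6 such cells of cluster 6 came from CAL-101 mice and 1, 7 and 0 from Control mice. The counts were concentrated: 7 droplets held 15071 of the cluster's 15082 haemoglobin UMIs (99.9%), and the remaining 10 cells had 1 or 2 each. The 7 droplets had 9330 haemoglobin UMIs in CAL-101 mouse 1, 1322, 803, 255, 243 and 208 in CAL-101 mouse 3, and 2910 in Control mouse 1. Haemoglobin made up 41.2% to 93.5% of their RNA, and their mitochondrial share was at most 0.372%. They had 246 to 609 tags each, of which 0 to 8 were CD45. The adult beta chain gene Hbb-bs gave 7994 of their UMIs, Hba-a1 3077, Hba-a2 2348 and Hbb-bt 1652, while the embryonic and fetal genes Hba-x, Hbb-bh1, Hbb-bh2 and Hbb-y gave 0; Hba-a1 and Hba-a2, and Hbb-bs and Hbb-bt, are near-identical pairs, so the split within each pair is uncertain. Alas2, the erythroid enzyme of haem synthesis, gave 26 UMIs, and Slc4a1, the anion exchanger of the red cell membrane, gave 0. The deposited labels of these droplets were NK cells (3), T cells (1), CD8+ T cells (1), B cells (1) and Progenitors (1).

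Haemoglobin levels by group and by label followed these droplets. Per 10000 RNA UMIs there were 238, 0 and 61.6 haemoglobin UMIs in CAL-101 mice and 114, 0.277 and 0 in Control mice. The groups overlapped (exact permutation p = 0.7, n = 3 per group). With the 7 droplets left out, the cluster had 0.0498 haemoglobin UMIs per 10000, against 0.0270 in the other clusters, a value that itself includes 1 droplet of 1261 haemoglobin UMIs in cluster 7 and is 0.00347 without it. By label, T-labelled cells had 0 to 39.6 and NK-labelled cells 0 to 1160 haemoglobin UMIs per 10000 (exact paired permutation p = 0.25, n = 6 mice, adjusted p = 0.62), and 3 of the 6 mice had 0 under both labels; the droplet of Control mouse 1 carries neither label.

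The CD117 signal came largely from 1 droplet. CD117 took 7.23% of the cluster's tags, against 0.949% in the other clusters, and had the highest ratio of all antibodies. A single droplet of CAL-101 mouse 3, labelled as a T cell, held 222415 CD117 tags among its 237001 tags (93.8%), with 1113 RNA UMIs and a mitochondrial share of 70.2%. It carried 74.7% of all CD117 tags of the cluster, and the next highest cell had 7618. Without it CD117 took 1.94% of tags. By mouse the share was 1.68%, 1.94% and 20.9% in CAL-101 mice and 1.30%, 1.63% and 1.74% in Control mice; the value of 20.9% is that of the mouse with the droplet. The median over cells was 1.64%, against 0.929% in the other clusters, beside 0.597% and 0.341% for the isotype controls together. The CD117 medians of the NK clusters 0, 7, 9 and 13 lay between 1.38% and 1.62%. Cluster 12 had a higher median, at 2.84%, and its share of summed tags was 1.94%. T-labelled cells took 1.19% to 24.9% and NK-labelled cells 1.66% to 2.05%; the mean paired difference of 3.72 percentage points (exact paired permutation p = 0.8125, n = 6) was -0.113 without CAL-101 mouse 3. Kit RNA, which encodes CD117, gave 10 UMIs in the whole cluster (4.49 CPM, against 17.2 CPM in the other clusters). Of 10 genes listed for mast cells, basophils and progenitors, 4 had a UMI, with 27 UMIs in all, and Gata2, Cd34 and Fcer1a were at 0. Gata2 and Cd34 were at only 0.0821 and 0.116 CPM in the other clusters, so their counts of 0 say little at this depth.

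The CD20 signal was spread over more cells and fell into 2 groups. CD20 took 2.45% of the cluster's tags, against 0.454% in the other clusters, and it was higher in 6 of 6 mice. Cluster 12, the other cluster of low RNA content, had 2.14%, and its median over cells was 1.01%, above the 0.661% of cluster 6. The median over all other cells was 0.377%, beside isotype control medians of 0.597% in cluster 6 and 0.341% elsewhere. How far the CD117 and CD20 medians go with the isotype controls was not tested. By mouse CD20 took 3.02%, 2.45% and 2.30% of tags in CAL-101 mice and 1.44%, 2.78% and 2.42% in Control mice, with overlap between the groups. Most cells had few CD20 tags: 1750 had under 20, 192 had 20 to 199 and 184 had 200 or more. The 253 cells with 100 or more CD20 tags (11.9% of the cluster) carried 84.7% of its CD20 tags, against 175 such cells (0.404%) in the other clusters. They made up 13.4%, 9.57% and 18.2% of the cluster in CAL-101 mice and 5.49%, 12.5% and 9.89% in Control mice. This limit was also set after the values were seen, 53 cells lay between 50 and 99 tags and 69 between 100 and 199, and it marks a range, not a cell type. The 253 cells were 80.2% T-labelled and 19.4% NK-labelled, close to the 80.4% and 19.1% of the cells under 100. T-labelled and NK-labelled cells of the same mice differed in CD20 share by -0.0208 percentage points (SD 0.975, exact paired permutation p = 1, n = 6). Ms4a1 RNA gave 1 UMI in the cluster (0.449 CPM, against 0.0448 CPM in the other clusters), and the B cell genes Cd79a, Iglc2 and Pax5 were at 0. Cd79a was at only 0.584 CPM in the other clusters, so counts of 0 or 1 say little at this depth. The list of 8 B cell genes had 188 UMIs in all, from 94.0 to 140 CPM in CAL-101 mice and 24.2 to 50.9 CPM in Control mice. Of these UMIs 122 were of Ighm, the immunoglobulin M heavy chain, which did not pass between the groups (log2 1.13, edgeR adjusted p = 0.0869); the part of these RNAs in the CD20 tags was not tested.

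**Figure D3:**
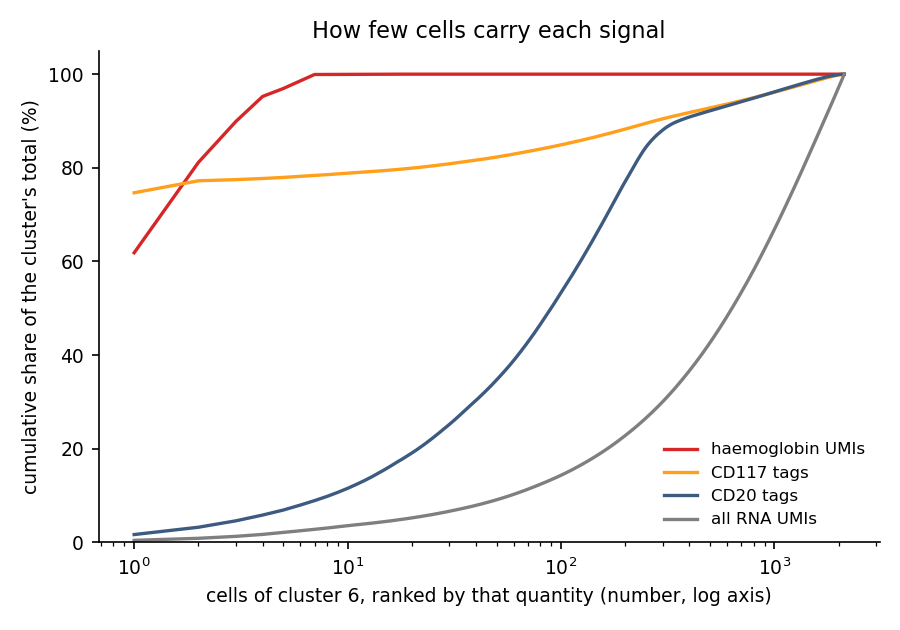
Cumulative share of the cluster's haemoglobin UMIs, CD117 tags, CD20 tags and RNA UMIs held by the cells ranked highest for each, with the number of cells on a log axis. Haemoglobin reaches 99.9% within 7 droplets, CD117 starts at 74.7% with the first droplet, and CD20 climbs to 84.7% over 253 cells, while RNA UMIs are spread over the whole cluster.

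The cells with 100 or more CD20 tags differed from the rest of the cluster in many other tags and in RNA that the limit did not use. Their median was 5835 tags per cell, against 890 in cells with fewer, and they held 48.1% of the cluster's tags. A limit on a tag count favours droplets with many tags in all, so this difference is not independent of the limit. Median RNA content of the cells at or above the limit was 949 UMIs against 847, and their mitochondrial share 59.6% against 31.4%. Tags with a higher share beside CD20 included CD300LG, an immunoglobulin-family surface receptor (2.10% against 0.713%), the chemokine receptors CD183 (3.77% against 1.39%) and CD199 (4.91% against 1.80%), IgD (0.275% against 0.0890%) and the isotype control RTK2758 (0.138% against 0.0571%), each higher in 6 of 6 mice. The 7 isotype controls together took 0.931% against 0.563%. In the other clusters, cells with 100 or more CD20 tags likewise had more tags (median 8348, against 1631 over all cells there). Their isotype share was 0.830%, against 0.346% over all cells there. Within cluster 6 the shares of CD45 (1.80% against 8.16%), CD44 (0.710% against 3.39%) and CD27 (0.209% against 1.16%) were lower in 6 of 6 mice. The CD45 count itself was not: the median cell had 122 CD45 tags against 79. The next comparison was with cells of under 100 CD20 tags that also had at least 5% mitochondrial UMIs. The nuclear RNA Malat1 was at 1025 CPM against 5539 CPM. The ribosomal RNA-associated transcript Gm26917 was at 56.5 CPM against 3356 CPM, and each was lower in 6 of 6 mice. Trbc2, at 3584 CPM against 3979 CPM, and Rpl41, at 2197 CPM against 2422 CPM, were higher in 2 of 6 mice and lower in 4. The median mitochondrial share was 59.6% in the cells at or above the limit and 39.0% in the cells compared. This lowers the CPM of other RNAs in the former, and levels among non-mitochondrial UMIs were not compared. The mitochondrial gene mt-Co3 was higher in 6 of 6 mice, at 128460 CPM against 87268 CPM.

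CAL-101 and Control mice were then compared within the cluster. The cluster made up 5.84%, 6.37% and 6.22% of the cells of CAL-101 mice and 2.81%, 3.54% and 4.09% of the cells of Control mice. All 3 CAL-101 mice lay above all 3 Control mice, with means of 6.14% ± 0.277 and 3.48% ± 0.643 (SD, n = 3 each; exact permutation p = 0.1, the smallest that 3 against 3 allows; adjusted p = 0.4 over 20 per-mouse measures). The order was the same among T-labelled cells (6.45% ± 0.556 and 4.10% ± 0.736, n = 3 each) and among NK-labelled cells (7.02% ± 3.47 and 2.56% ± 0.775). On the cell numbers of all 14 clusters, edgeR's quasi-likelihood test gave a log2 ratio of 0.82 (adjusted p = 0.0772), so this difference did not pass the threshold.

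The state of the cells by these measures overlapped between the groups, except for their tags. Median RNA was 869, 814.5 and 961 UMIs in CAL-101 mice and 823, 879 and 830 UMIs in Control mice (exact permutation p = 0.7, n = 3 each). The mitochondrial share of summed RNA was 41.2%, 30.6% and 42.6% in CAL-101 mice and 37.7%, 42.0% and 31.8% in Control mice (exact permutation p = 0.9, n = 3 each). Median tags per cell were 976, 819 and 1103 in CAL-101 mice, all below the 1252, 1212 and 1115 in Control mice (exact permutation p = 0.1, n = 3 each, adjusted p = 0.4). Isotype controls took 0.834%, 0.788% and 0.750% of tags in CAL-101 mice, all above the 0.524%, 0.709% and 0.722% in Control mice (exact permutation p = 0.1, n = 3 each, adjusted p = 0.4). NK-labelled cells made up 20.3%, 13% and 15.1% of the cluster in CAL-101 mice and 17.3%, 30.4% and 22.7% in Control mice, with overlap.

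**Figure D4:**
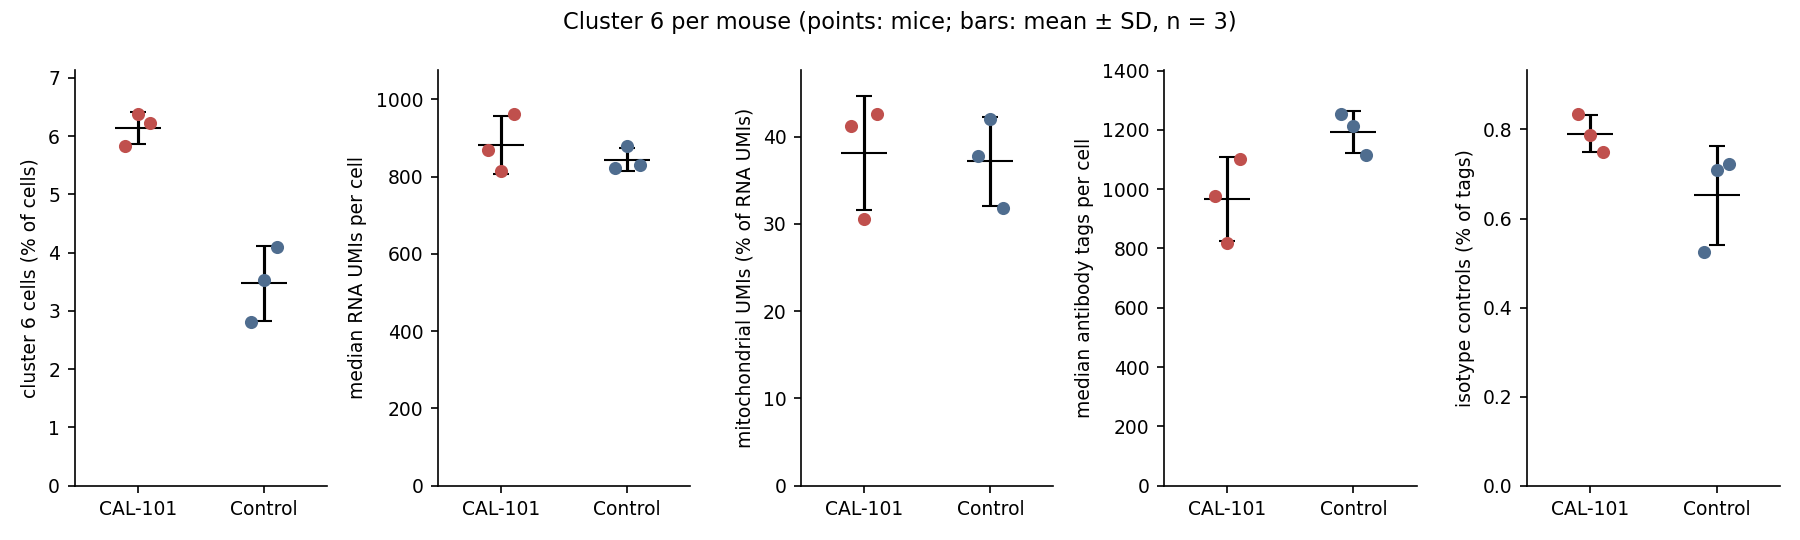
Per-mouse values of 5 measures of cluster 6, with CAL-101 mice left and Control mice right in each panel; points are mice, and bars are the mean and SD of 3 mice. The share of cells, the tags per cell and the isotype share do not overlap between groups, while RNA UMIs and mitochondrial share do.

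Transcripts of cytotoxic granules were lower in the CAL-101 cells of the cluster, and genes including Tox and Dapl1 were higher. Counts were summed per mouse and tested with edgeR's quasi-likelihood test with Benjamini-Hochberg adjustment: of 3853 genes, 54 passed an adjusted p of 0.05 (1.40%), 13 higher (0.337%) and 41 lower (1.06%). Without CAL-101 mouse 3, 28 passed. The group of granzymes D to G stood at the top of the list. Gzmg was at 15.3, 15.7 and 8.70 CPM in CAL-101 mice and 305, 315 and 321 CPM in Control mice (log2 fold change -4.55, SE 0.25, edgeR adjusted p = 1.4967e-11). Gzmf was at 56.1, 91.8 and 32.6 CPM in CAL-101 mice, against 2336, 540 and 1111 CPM in Control mice (-4.47, SE 0.39, adjusted p = 7.3038e-08; -3.76 without Control mouse 1). Neither gene's groups overlapped, which the rule for naming genes required. Over all 3853 genes tested, 448 (11.6%) had groups without overlap. Gzmd (-3.60) and Gzme (-3.22) fell too; granzymes D to G are close paralogs, so the share of each is uncertain. Much of the Gzmf signal of Control mice lay in the band under 5% mitochondrial UMIs, where it reached 11278, 847 and 2429 CPM, against 70.1, 90.6 and 60.6 CPM in CAL-101 mice. Among cells at 5% or more alone, Gzmf still fell by 3.36 on the log2 scale (adjusted p = 5.0557e-16).

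Of the granzymes found in many cytotoxic cells, Gzma fell to 352, 80.6 and 76.1 CPM in CAL-101 mice, against 603, 814 and 897 CPM in Control mice (log2 -2.15, SE 0.39, edgeR adjusted p = 0.00285). Gzmb averaged 534 ± 146 CPM in CAL-101 mice and 999 ± 282 CPM in Control mice (SD, n = 3 each; log2 -0.90, edgeR adjusted p = 0.0220), and Gzmc 363 ± 106 and 1272 ± 370 CPM (log2 -1.85). Prf1, the pore-forming perforin, was at 71.4, 40.3 and 54.4 CPM in CAL-101 mice and 188, 184 and 190 CPM in Control mice (log2 -1.75, edgeR adjusted p = 9.5785e-05). Serpinb9b, of the serpin family that holds granzyme inhibitors, fell by 2.97 on the log2 scale, and the secreted phosphoprotein gene Spp1 was at 78.8 ± 36.9 CPM in CAL-101 mice and 393 ± 38.3 CPM in Control mice (log2 -2.34). Myo10, an unconventional myosin, fell by 2.29. The log2 fold change of Gzma was -3.35 without CAL-101 mouse 1. Its call was lost without CAL-101 mouse 3 (edgeR adjusted p = 0.0592) and with DESeq2 (adjusted p = 0.400), and that for Gzmb without CAL-101 mouse 1, CAL-101 mouse 3 or Control mouse 3 (edgeR adjusted p 0.116 to 0.190).

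Among the genes that rose, Tox, a transcriptional regulator of exhausted T cells, was at 173, 179 and 167 CPM in CAL-101 mice and 31.3, 52.0 and 46.9 CPM in Control mice (log2 1.98, SE 0.24, edgeR adjusted p = 1.7999e-05). Dapl1 was at 107, 94.0 and 69.6 CPM against 3.91, 41.6 and 15.6 CPM in Control mice (log2 2.12, SE 0.41, adjusted p = 0.00544 with edgeR, 0.325 with DESeq2); without Control mouse 2 its log2 fold change was 3.09. Ikzf2, which encodes the transcription factor Helios, averaged 139 ± 16.1 CPM in CAL-101 mice and 58.9 ± 24.4 CPM in Control mice (SD, n = 3 each; log2 1.22). Cxcl10, an interferon-induced chemokine, rose by 1.58, Mgst2 by 1.42, Phlpp1 by 1.33, Hsp90aa1, a heat shock chaperone, by 0.84 and Ndufa4, a respiratory chain subunit, by 0.81 on the log2 scale. The groups did not overlap for any of these 8 genes, but the rule that named them required this. Of all genes tested, 11.6% had groups without overlap. Without single mice the calls for Phlpp1, Hsp90aa1 and Ndufa4 were lost in 3 or 4 of 6 cases and that for Mgst2 in 2 (without CAL-101 mouse 3 or Control mouse 3).

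The genes that mark the cluster did not pass this test. None of the 13 mitochondrial genes passed in edgeR and 1 had an unadjusted p under 0.05 (median log2 fold change 0.11, range -0.29 to 0.53, against a median of -0.0015 over all 3853 genes). That gene was mt-Co1, at 66806, 54190 and 68328 CPM in CAL-101 mice and 82046, 81177 and 70022 CPM in Control mice. The CAL-101 mice all lay below the Control mice, by 0.29 on the log2 scale (SE 0.14, edgeR adjusted p = 0.524). Such a lack of overlap was seen in 11.6% of all genes tested, and an unadjusted edgeR p under 0.05 in 365 of the 3853. Hbb-bs was at 12335, 0 and 3905 CPM in CAL-101 mice and 5338, 17.3 and 0 CPM in Control mice, with overlap and without passing (log2 1.71, edgeR adjusted p = 0.753), and its counts are those of the haemoglobin droplets. Without Control mouse 1, which holds the Control droplet, Hbb-bs (log2 9.52, edgeR adjusted p = 0.00289) and Hba-a1 (log2 9.31, edgeR adjusted p = 0.00316) passed, and both also passed with no filter on low counts (log2 1.83 and 1.28). Malat1 was at 4532 ± 971 CPM in CAL-101 mice and 5016 ± 1077 CPM in Control mice (SD, n = 3 each; edgeR adjusted p = 0.854).

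By gene list, 10 of the 16 effector and cytotoxic genes tested fell and none rose (median log2 -1.04). Beside the counts by list, 54 of all 3853 genes tested (1.40%) passed and 365 had an unadjusted p under 0.05 in edgeR. Of 9 genes of progenitor exhausted T cells tested, Bach2, a repressor that favours memory, fell to 80.9 ± 32.7 CPM in CAL-101 mice, against 196 ± 26.7 CPM in Control mice, and 8 did not pass. Tcf7, the transcription factor of that state, had 33.2, 38.1 and 39.1 CPM in CAL-101 mice and 15.7, 17.3 and 20.9 CPM in Control mice without overlap, but did not pass (log2 1.01, edgeR adjusted p = 0.320, 65 UMIs in all). Groups without overlap were found for 11.6% of all genes tested. Of 9 terminal exhaustion genes tested, Tox rose and 8 did not pass, with Pdcd1, the inhibitory receptor PD-1, at 107 ± 19.4 CPM in CAL-101 mice and 79.3 ± 19.5 CPM in Control mice. Of 8 NK genes tested, Fcer1g, Gzma, Klrd1 and Tyrobp fell; the 17 NK genes summed to 900 to 1239 CPM in CAL-101 mice and 2039 to 2368 CPM in Control mice. In T-labelled cells alone the calls for Tyrobp (log2 -1.45 against -1.83 over the whole cluster, edgeR adjusted p = 0.0528), Fcer1g (-0.72 against -1.64, 0.568) and Klrd1 (-0.52 against -0.73, 0.351) were lost, and the part of NK cell RNA in them was not tested. Of 12 T cell receptor complex genes none passed in edgeR, though 5 had an unadjusted p under 0.05, with Trac at 200 ± 19.4 CPM in CAL-101 mice and 133 ± 46.1 CPM in Control mice.

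Genes of cell death and stress gave 1 call. Over all 3853 genes tested, 54 (1.40%) passed and 365 had an unadjusted p under 0.05 in edgeR. None of the 8 BCL2 family genes, 7 caspase and death receptor genes, 6 p53 targets, 4 integrated stress response genes and 5 genes of mitochondrial quality control tested passed in edgeR, and 2 of these had an unadjusted p under 0.05. One was Fas, a death receptor, with 28.1, 29.1 and 41.3 CPM in CAL-101 mice and 7.83, 13.9 and 2.61 CPM in Control mice. Its groups did not overlap, as in 11.6% of all genes tested. Fas lay just outside the threshold (log2 2.09, SE 0.54, edgeR adjusted p = 0.0526, 50 UMIs in all). Of 15 dissociation and stress genes Hsp90aa1 alone rose, and of 20 nuclear-encoded respiratory chain genes Ndufa4 alone. None of the 20 ribosomal protein, 15 proliferation or 8 type I interferon genes tested passed in edgeR, and 3 of these had an unadjusted p under 0.05.

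Of the antibody tags that passed, 8 of 9 were lower in CAL-101 mice. With the same test, 9 of 102 antibodies passed (8.82%), 8 lower (7.84%) and 1 higher (0.980%). DESeq2 passed 33, of which 11 were higher and 22 lower. CD357, the tumour necrosis factor receptor family member GITR, took 1.64%, 1.44% and 1.01% of tags in CAL-101 mice and 3.73%, 3.22% and 3.05% in Control mice (log2 -1.45, SE 0.20, edgeR adjusted p = 0.0215). CD55, a regulator of complement, took 0.199%, 0.378% and 0.122% in CAL-101 mice and 0.674%, 1.37% and 0.969% in Control mice (log2 -2.23, edgeR adjusted p = 0.0361). The integrin subunits CD61 (log2 -1.43) and CD49b (-1.48), the interleukin 2 receptor chain CD25 (-1.11), the adhesion molecule CD31 (-1.03), CD45R/B220 (-0.92) and the hyaluronan receptor CD44 (-0.77) fell too. The one that rose was CD73, the ectoenzyme that makes adenosine, at 0.182%, 0.222% and 0.125% in CAL-101 mice and 0.0861%, 0.0937% and 0.0834% in Control mice (log2 0.86, edgeR adjusted p = 0.0457). None of these groups overlapped, but how many of all 102 antibodies had groups without overlap was not counted, so this adds nothing to the calls. In T-labelled cells alone the calls for CD55 (log2 -1.45, edgeR adjusted p = 0.143), CD25 (-1.19, 0.0555), CD45R/B220 (-0.67, 0.0555), CD44 (-0.83, 0.0555) and CD73 (0.80, 0.0907) were lost. The calls also depended on single mice: without 1 mouse between 0 and 16 antibodies passed, 0 of them without CAL-101 mouse 1 or Control mouse 2 and 16 without Control mouse 3, and CD73 passed in none of the 6 fits with a mouse left out. CD117 (log2 2.42, edgeR adjusted p = 0.201) and CD20 (0.12, 0.719) did not pass, nor did any of the 7 isotype controls, CD8a (-0.37, and 0.07 without the cells of 100 or more CD20 tags) or NK-1.1 (-0.49, adjusted p = 0.0550). With the 5 cells of over 20000 tags left out, CD117 had a log2 fold change of 0.25. CD90.2, the Thy1 allele of the host and not of the transferred cells, took 0.329%, 0.166% and 0.112% in CAL-101 mice and 0.536%, 1.58% and 0.500% in Control mice (log2 -2.25, edgeR adjusted p = 0.0600; -1.58 without Control mouse 2, and 0.0402 as adjusted p without Control mouse 3).

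The same genes were set beside T-labelled cells of clusters 1 to 5 from the same mice, so the 2 comparisons share their animals. In T-labelled cells of cluster 6, 42 of 3348 genes passed, and in those of clusters 1 to 5, 2850 of 16450 (17.3%). With the counts of clusters 1 to 5 thinned to the cluster 6 total in each mouse, 153 of 4916 genes passed (3.11%). Tox rose by 1.97 in T-labelled cells of cluster 6 and by 1.99 in clusters 1 to 5 on the log2 scale. Gzmf had log2 fold changes of -3.44 and -3.33, Prf1 of -1.33 and -1.17, and Ikzf2 of 1.11 and 1.17 in the same order. To test the effects against each other, log2 CPM of clusters 1 to 5 was subtracted from that of cluster 6 within each mouse and the groups were compared with limma, and 2 of 3348 genes passed (0.0597%). Gzma had a log2 fold change of -2.22 in cluster 6 and -4.40 in clusters 1 to 5 (difference 2.08, SE 0.31, limma adjusted p = 0.0359). Serpinb9b had -2.64 and -3.97 (difference 2.01, SE 0.30, limma adjusted p = 0.0359). Both edgeR falls were smaller in cluster 6, which had fewer counts. The limma difference was taken on log2 CPM with a prior count of 2, so it need not equal the difference between the edgeR values. With the thinned counts neither passed (limma adjusted p = 0.177 for Gzma, at a difference of 2.04, and 0.992 for Serpinb9b, at 0.43), and neither passed with any 1 mouse left out (differences of 1.78 to 2.29 and of 1.82 to 2.30). Tcf7 had 1.1 in cluster 6 and 2.27 in clusters 1 to 5, with a difference of -1.34 that did not pass (limma adjusted p = 0.534; 0.0230 with a prior count of 5).

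**Figure D5:**
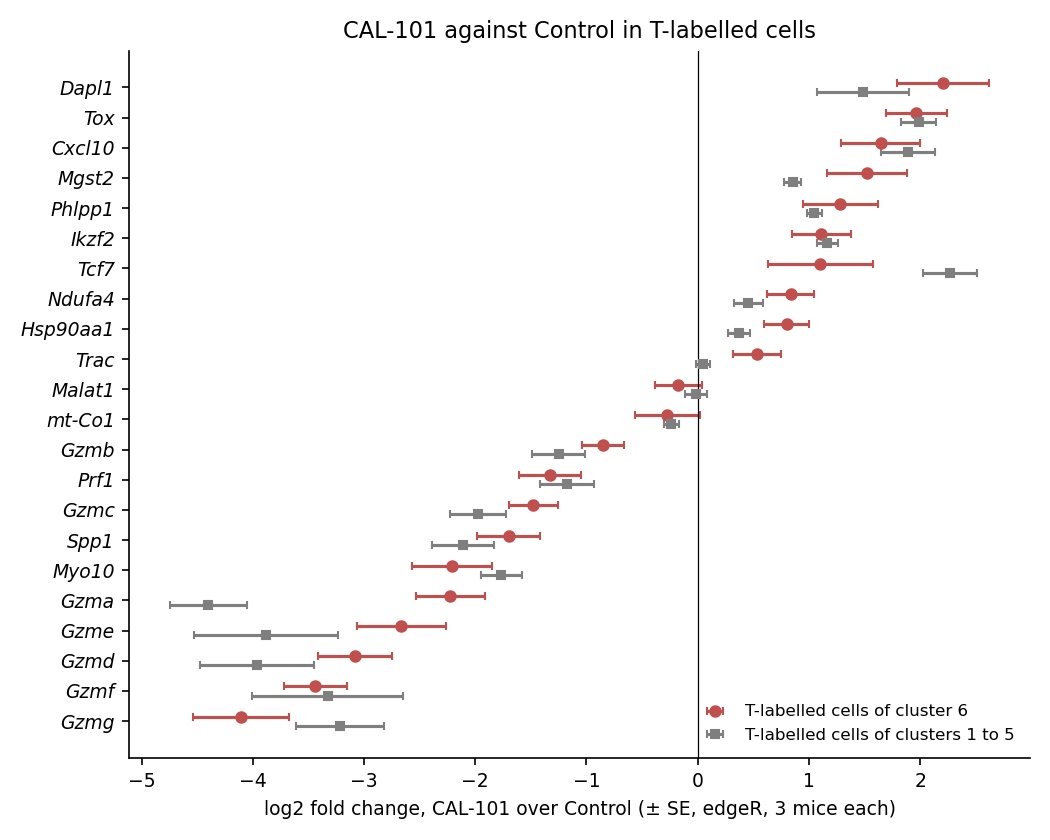
Log2 fold changes of CAL-101 over Control in T-labelled cells of cluster 6 (circles) and of clusters 1 to 5 (squares), with their edgeR standard errors over 3 mice per group, for the genes named by the selection rule and Gzmb, Tcf7, Prf1, Trac, mt-Co1 and Malat1. Tox and Prf1 lie within their standard errors of each other, and Gzma is farther from 0 in clusters 1 to 5 (-4.40) than in cluster 6 (-2.22).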

How the data were processed

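Per the labels' protocols, CD45.2+ cells were sorted and captured for 3′ RNA and antibody tags, and matrices of raw UMI counts were deposited by the authors, and the file headers name Cell Ranger 7.1.0; Seurat and the mm10 build are named in the submitters' processing notes. How cells, clusters and labels were called, and whether doublets were removed or strand used in counting, is not stated in the sources used; no doublets were removed here. All 2126 deposited members were used. Counts were summed per mouse and tested with edgeR 4.0.16 (TMM, filterByExpr, quasi-likelihood), limma 3.58.1 (prior count 2) for differences of effects and DESeq2 1.42.0 as an alternative; single values were tested with exact 2-sided permutation tests. CPM is a count scaled to all RNA UMIs of the cells summed; a tag share is of all tags. Intervals cover counting error only. On simulated counts for 3875 genes at this depth, the test found 82% of genes given a log2 change of 2 and 54% at a change of 1, with 1 false call. The simulation gave every gene the same fixed dispersion and changed only genes above a minimum mean count. These rates therefore need not hold for the real mice. Replicates of a group differed by 2.66 to 5.16 times the sampling noise (chi-square per degree of freedom). Genes to name were those called with non-overlapping groups and 50 CPM or more on average, the 8 strongest in each direction, without ribosomal, mitochondrial, Gm and Rik entries, up to 4 genes per list by smallest p, and fixed markers; other genes were named after their values were seen. The members, lists and tests were chosen with earlier results of these data known. Alternatives were another normalisation, no low-count filter, T-labelled cells only, mitochondrial genes left out, each mouse left out and, chosen after the data were seen, the 7 haemoglobin droplets, the cells under 5% mitochondrial UMIs and the cells of 100 or more CD20 tags left out. Nothing says that the mice of a group came from separate experiments, so p-values measure the spread between these mice.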

Additional observations from a re-analysis of the deposited data

Results flagged for a closer look

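The fall of Gzma and Serpinb9b with CAL-101 differed between T-labelled cells of cluster 6 and of clusters 1 to 5 by the limma test of the difference itself, with differences of 2.08 for Gzma and 2.01 for Serpinb9b on the log2 scale. Neither passed with the thinned counts or with any 1 mouse left out. In 4 values by label, 1 of the 6 mice stood apart from the other 5: haemoglobin in T-labelled cells of CAL-101 mouse 3 (39.6 per 10000 UMIs) and in NK-labelled cells of CAL-101 mouse 1 (1160), CD117 in T-labelled cells of CAL-101 mouse 3 (24.9% of tags) and CD20 in NK-labelled cells of CAL-101 mouse 3 (3.81% of tags). The rule is set to mark about 1 in 20 groups of normally spread values by chance; these values, at 0 in most mice or set by single droplets, are not so spread, and their chance rate was not tested.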

How the results depend on the processing

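Over the 40 results named singly, 413 of 522 alternatives kept the direction and the side of the threshold, 95 lost and 10 gained a call and 4 turned sign. The higher share of cells in CAL-101 mice kept its direction under every alternative run, with differences of 2.33 to 2.97 percentage points without single mice. 54 genes passed; 30 passed with DESeq2 and 28 to 55 without single mice. For antibodies (9) the counts were 33 with DESeq2, 5 in T-labelled cells, 6 without cells of 100 or more CD20 tags and 0 to 16 without single mice; for the difference of effects (2 genes) they were 3 with a prior count of 5, 0 with thinned counts and 0 to 0 without single mice. In T-labelled cells of clusters 1 to 5, 153 genes passed after thinning.
Differences that did not pass turned sign: RNA per cell (37.5 UMIs) was -3.68 by the mean and -2.25 to 71.0 without single mice, mitochondrial share (0.921 points) was -0.314 by the median over cells, -1.47 in cells at 5% or more and -1.76 to 4.68 without single mice, and haemoglobin (61.8 per 10000) was -0.244 points as a share of cells, -0.0676 without the 7 droplets and -7.26 to 112 without single mice. T minus NK was -0.0889 points for CD117 by the median over cells and -0.113 to 4.57 without single mice, and 0.0129 for CD20 without cells of over 20000 tags and -0.179 to 0.341 without single mice. Without CAL-101 mouse 1 the log2 fold change of Hba-a1 was -0.60, over a range of -0.60 to 9.31 without single mice; that of the CD20 tag was -0.030 scaled to isotype controls and -0.041 to 0.281 without single mice; that of CD8a was 0.0744 without the cells of 100 or more CD20 tags. Scaling to isotype controls moved the median of all antibodies to -0.155, and 8 passed, 0 higher and 8 lower. The cause was not tested. Mice sharing a number deviated together only weakly (correlations of 0.11, 0.0759 and -0.0903), so the numbers were not taken as pairs; with the replicate block 41 genes, 7 antibodies and 2 differences of effects passed. Depth, at 255552 to 459871 UMIs per mouse, limits the genes tested to 3853.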
